A study of Mus musculus with 16 samples.

Results

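The left ventricle of mouse embryos with hypoplastic left heart syndrome (HLHS) was compared with the left ventricle of their littermates by RNA sequencing. Of the 16 libraries of the study, the 8 whose labels give the left side were taken: 3 from HLHS embryos and 5 from control embryos, each a separate embryo per the labels. All embryos were of the C57BL/6 background. There were 3 litters, named by embryonic day. The E13.5 litter gave 1 embryo of each phenotype, and the E14.5 litter and the E17.5 litter each gave 1 HLHS embryo and 2 controls. Stage and litter were therefore the same variable, and no stage had more than 1 HLHS embryo. The labels give a phenotype but no genotype or allele for either group, and do not say whether the ventricle was freed of valve, epicardium or vessels.

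HLHS is a malformation in which the left ventricle and the outflow from it are underdeveloped. The developing ventricular wall is built from cardiomyocytes that gain contractile, ion channel and mitochondrial genes towards birth, and from endocardium, endothelium, epicardium and fibroblasts. Secreted Wnt, TGF-beta and BMP ligands pass between these layers, and the cytoskeleton of microtubules, actin and intermediate filaments links the cells and their contractile apparatus. The mouse line is known for Sap130, a subunit of a histone deacetylase complex. Since the labels give no allele, the level of its RNA checks no label. Sap130 had 39.6, 26.2 and 33.9 CPM in the HLHS libraries and 51.8 (E13.5), 34.8 and 33.1 (E14.5), and 37.1 and 45.9 CPM (E17.5) in the controls. The HLHS level was below every littermate control in all 3 litters (log2 change -0.35 ± 0.08, adjusted p = 0.023). That call was lost without HLHS library 1 (adjusted p = 0.081) or 2 (0.101) and without control library 1 (0.0856) or 2 (0.0583).

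Total counts per left ventricle library ran from 18179762 to 28648645. Ventricular cardiomyocyte markers summed to 26460 to 30200 CPM (counts scaled to the size of the library) in HLHS and 22890 to 32300 CPM in control libraries, and no marker of lung epithelium passed the count filter. Liver markers summed to 14.8 CPM in control library 5, from E17.5, and to 0.377 to 0.843 CPM in the other libraries. Markers of several other cell types moved with the phenotype. As a scale, 6.17% of all tested genes were higher in HLHS and 6.61% lower. Of 12 fibroblast markers, 8 were lower in HLHS and 0 higher, with a summed level of 4036 to 4995 CPM against 4718 to 6159 CPM in controls. Of 5 mast cell markers, 4 were lower (29.6 to 39.0 CPM for the list against 40.9 to 68.8 CPM), with Tpsb2 at 0 in both E13.5 libraries and Fcer1a at 0 in the E13.5 and E14.5 libraries. Of 13 erythroid markers, 10 were higher and 1 lower (985 to 1576 CPM against 829 to 1039 CPM). These counts depended on single libraries: with 1 library left out, 3 to 7 fibroblast, 3 to 5 mast cell and 1 to 11 erythroid markers were called in that direction. Of 12 endothelial markers, 3 were lower (1178 to 1607 CPM against 1488 to 1705 CPM), and 1 to 8 with 1 library left out. Of 12 endocardial markers, 3 were higher and 2 lower (397 to 639 CPM against 376 to 518 CPM). With 1 library left out these were 1 to 6 and 0 to 2. Of 7 platelet and megakaryocyte markers, 2 were higher and 0 lower, and 0 to 2 were higher with 1 library left out. The part of these cell types in the results was not tested. In bulk tissue, fewer cells of a type and less RNA per cell cannot be told apart. By the level of X- and Y-linked genes, the E13.5 HLHS embryo was female and its control male, so sex and phenotype cannot be told apart in that litter. A term for sex over the 3 litters gave 2020 called genes, against 2043 without it.

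Over the whole left ventricle, 2043 of 15979 genes tested (12.8%) differed at an adjusted p under 0.05 by edgeR's quasi-likelihood test with litter as a term and Benjamini-Hochberg adjustment over all genes. In HLHS, 986 genes (6.17%) were higher and 1057 (6.61%) lower. At least 2-fold differences were fewer, with 134 genes (0.839%) higher and 184 (1.15%) lower. Of the called genes, 2028 had the same direction in all 3 litters. In 2007 of them the HLHS library lay beyond every littermate control in each litter, as in 5233 of all tested genes (32.7%). The genes were called on these same libraries, so the 2028 and 2007 describe them and test nothing. Values marked ± are log2 changes with standard errors, from this fit of 3 HLHS and 5 control libraries unless another fit or contrast is named, and levels are in CPM of reads, not scaled by gene length. Without HLHS library 2, from E14.5, 845 genes were called, and without control library 2 or 3, its littermates, 1138 or 1309.

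The difference was largest in the E14.5 litter for 494 of the 986 higher genes, in the E17.5 litter for 276 and in the E13.5 litter for 216. Their median difference from littermates, in log2 CPM, was 0.37 in the E13.5, 0.43 in the E14.5 and 0.35 in the E17.5 litter. Among the 1057 lower genes the E14.5 litter held the largest difference for 473, the E17.5 litter for 361 and the E13.5 litter for 223, with medians of -0.40, -0.52 and -0.44. Over all tested genes the medians were 0.03, 0.0011 and -0.0061. The called genes were chosen on these same libraries, so these sizes describe them and test nothing.

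**Figure D1:**
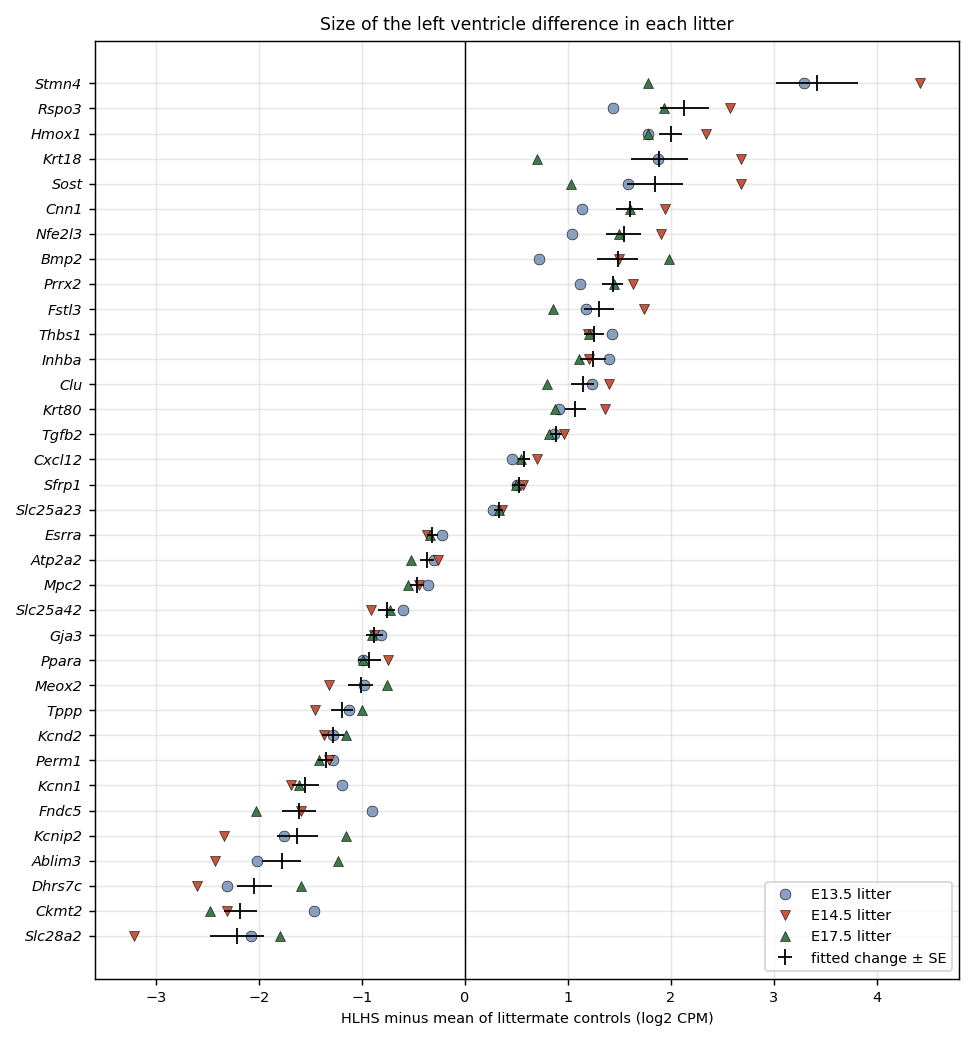
Difference between the HLHS left ventricle and the mean of its littermate controls in log2 CPM (x axis) for 35 genes (y axis), with 1 symbol per litter and the fitted change with its standard error as a cross. The litters lie close together for Tgfb2, Sfrp1, Gja3 and Perm1, while for Stmn4 the E17.5 litter lies at 1.78 and the E14.5 litter at 4.42.

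Of 336 secreted factors measured, 51 were higher and 30 lower in HLHS (24.1%, beside 12.8% of all genes), with a median log2 change of 0.03 against 0.01 over all tested genes. Without HLHS library 2 these counts were 30 and 14. Wnt genes moved mostly one way. Of 9 Wnt ligands tested, 4 were higher and 0 lower, and of 14 secreted Wnt modulators 6 were higher and 1 lower. With 1 library left out, 1 to 3 of the ligands and 4 or 5 of the modulators were higher.

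Rspo3, an R-spondin that amplifies Wnt signalling at the receptor, had 6.99, 10.1 and 2.17 CPM in the HLHS libraries and 2.53 (E13.5), 1.85 and 1.44 (E14.5), and 0.709 and 0.355 CPM (E17.5) in the controls. In each litter the HLHS library was the highest (log2 change 2.13 ± 0.24, adjusted p = 0.00127), with differences of 1.44, 2.58 and 1.94 at E13.5, E14.5 and E17.5. Sost, whose product sclerostin binds Wnt co-receptors and blocks them, had 9.69, 14.2 and 5.62 CPM in the HLHS libraries and 3.18 (E13.5), 1.69 and 2.71 (E14.5), and 3.05 and 2.4 CPM (E17.5) in the controls. It rose by 1.85 ± 0.27 (adjusted p = 0.00405), and again no control reached its HLHS littermate. Sfrp1, a secreted decoy for Wnt ligands, had 415, 336 and 161 CPM in the HLHS libraries and 292 (E13.5), 212 and 245 (E14.5), and 118 and 110 CPM (E17.5) in the controls. It was above its littermates by nearly the same factor in each litter (0.51, 0.56 and 0.50, fitted 0.52 ± 0.06, adjusted p = 0.0016).

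The related decoy Sfrp5 went the other way, with 4.67, 1.89 and 3.29 CPM in the HLHS libraries and 6.79 (E13.5), 6.06 and 5.29 (E14.5), and 6.01 and 7.8 CPM (E17.5) in the controls. It fell by 1.07 ± 0.19 on the log2 scale (adjusted p = 0.00838). Among the ligands, Wnt5a, which signals mostly outside the beta-catenin route, had 72.6, 62.9 and 29.8 CPM in the HLHS libraries and 55.3 (E13.5), 45.2 and 47.2 (E14.5), and 17.3 and 21.3 CPM (E17.5) in the controls. The groups did not overlap within litters, and the rise was 0.49 ± 0.08 (adjusted p = 0.00573). Dkk3 rose by 0.59 ± 0.09 (adjusted p = 0.00477; 0.0696 with all 16 libraries in 1 fit). Wnt9b (1.99 ± 0.42) and Wnt11 (0.57 ± 0.13) were called too, at adjusted p = 0.0156 and 0.0234. The Wnt9b call was lost without HLHS library 2 (adjusted p = 0.0799) or 3 (0.0544), and the Wnt11 call without HLHS library 1 or 2 or control library 1, 2 or 3 (adjusted p = 0.0518 to 0.157).

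The TGF-beta superfamily showed several higher ligands together with their modulators. Of 21 ligands tested, 5 were higher and 1 lower (28.6% called, beside 12.8% of all genes, median log2 change 0.21). Of 18 antagonists and modulators 5 were higher and 2 lower (38.9%, median 0.16). With 1 library left out, 5 to 7 ligands and 3 to 7 modulators were higher. Tgfb2, which drives cushion formation in the developing heart, had 130, 122 and 79.6 CPM in the HLHS libraries and 71.2 (E13.5), 60.6 and 64.1 (E14.5), and 47 and 43.4 CPM (E17.5) in the controls. The HLHS library was well above its littermates at each stage (log2 change 0.88 ± 0.06, adjusted p = 0.000136), and the litters differed little (0.86, 0.96 and 0.82). Tgfb3 rose by 0.62 ± 0.09 (adjusted p = 0.00358), and Ltbp1, which holds latent TGF-beta in the matrix, by 0.60 ± 0.09 (adjusted p = 0.00482). Of 12 valve and cushion markers, 3 were higher and 1 lower (33.3%), with 1 to 3 higher on leaving out 1 library. Their sum was above every littermate in each litter: 743 CPM in HLHS against 524 CPM in the E13.5 litter, 669 against 453 and 405 CPM at E14.5, and 374 against 342 and 327 CPM at E17.5. Most of this sum was Vcan, with 613, 553 and 286 CPM in the HLHS libraries. The controls had 408 (E13.5), 364 and 323 (E14.5), and 234 and 231 CPM (E17.5) of it. The median difference over the 12 markers was 0.34, 0.15 and -0.11 in the 3 litters. The part of these cells in the results was not tested.

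Inhba, the subunit of activin A, had 13.9, 6.12 and 6.28 CPM in the HLHS libraries and 5.22 (E13.5), 2.97 and 2.27 (E14.5), and 2.71 and 3.03 CPM (E17.5) in the controls. Each HLHS library was at least 2-fold above its littermates (log2 change 1.25 ± 0.13, adjusted p = 0.00105). Fstl3, which binds and blocks activins, rose alongside it, with 26.2, 23.8 and 9.92 CPM in the HLHS libraries and 11.6 (E13.5), 7.18 and 6.89 (E14.5), and 5.38 and 5.51 CPM (E17.5) in the controls (log2 change 1.30 ± 0.15, adjusted p = 0.00137). Its difference was 1.17, 1.74 and 0.85 in the litters from E13.5 to E17.5. The BMP ligands Bmp2 (1.48 ± 0.20, adjusted p = 0.00248) and Gdf6 (1.01 ± 0.15, adjusted p = 0.0044) and the BMP antagonist noggin, Nog (1.78 ± 0.25, adjusted p = 0.00326), were also higher.

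Bmp10, a ligand made by trabecular cardiomyocytes that keeps them growing, was the only ligand of this family called lower. It had 41, 7.04 and 8.52 CPM in the HLHS libraries and 49.1 (E13.5), 34 and 34.8 (E14.5), and 33.4 and 35.1 CPM (E17.5) in the controls. The E13.5 embryos lay close together, while in the later litters the HLHS library was more than 3-fold below the lower control (log2 change -1.54 ± 0.31, adjusted p = 0.0133). The call was lost without HLHS library 2 (adjusted p = 0.073) or 3 (0.0512). Bmp10 also stands on the list of 12 atrial markers, of which 1 was higher and 2 lower (25%, beside 12.8% of all genes). The list summed to 679.8 to 1578 CPM in HLHS against 755 to 1562 CPM in controls. The part of atrial cells was not tested.

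**Figure D2:**
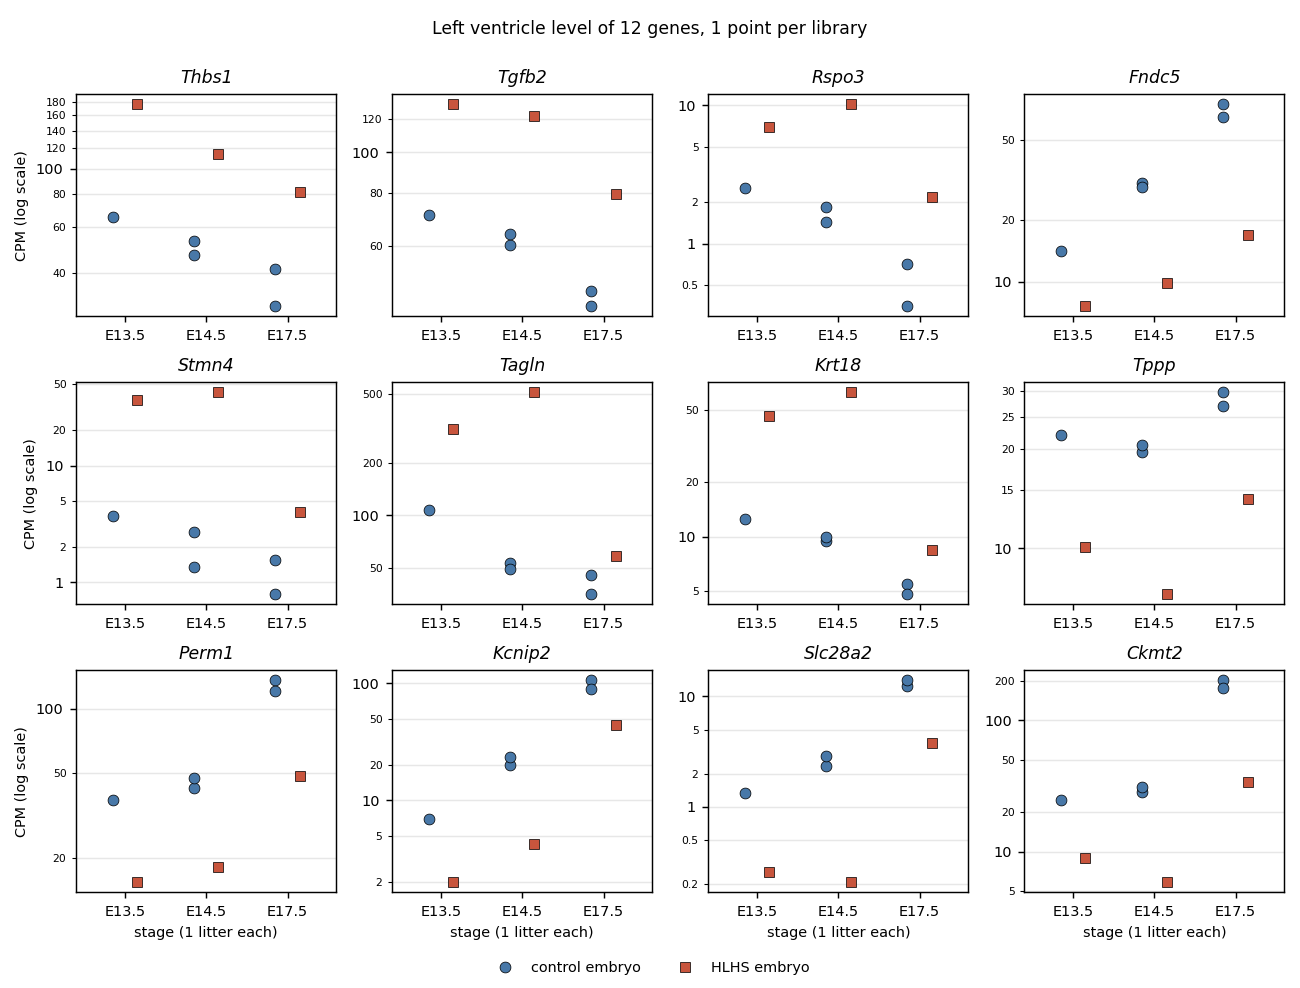
Level in CPM (y axis, log scale) of 12 genes in the 8 left ventricle libraries by stage (x axis), with circles for control and squares for HLHS embryos. In all 12 panels the HLHS library lies outside the range of its littermates; for Tagln and Krt18 the E17.5 libraries lie closest together.

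Among other secreted proteins, Clu, the extracellular chaperone clusterin, had 288, 286 and 112 CPM in the HLHS libraries and 122 (E13.5), 97.4 and 120 (E14.5), and 70.6 and 58.9 CPM (E17.5) in the controls and rose by 1.15 ± 0.11 (adjusted p = 0.000892). Its E17.5 HLHS library lay below the E13.5 control and 1 E14.5 control, so the groups separated only within litters. Thbs1, the matrix glycoprotein thrombospondin, had 176, 114 and 81.2 CPM in the HLHS libraries and 65.6 (E13.5), 46.8 and 52.8 (E14.5), and 41.4 and 29.9 CPM (E17.5) in the controls and rose by 1.26 ± 0.10 (adjusted p = 0.000306).

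Matricellular proteins were called in both directions, with 9 of 43 tested higher and 10 lower (44.2%, beside 12.8% of all genes, median -0.03). Leaving out 1 library gave 4 to 7 higher and 4 to 9 lower. On the lower side stood Mfap5, a microfibril protein of connective tissue, which had 2.7, 4.07 and 9.61 CPM in the HLHS libraries and 6.03 (E13.5), 6.66 and 9.4 (E14.5), and 22.8 and 17.9 CPM (E17.5) in the controls. Its HLHS level was below each littermate in all 3 litters (log2 change -1.07 ± 0.15, adjusted p = 0.00302). Ccn3 (-1.11 ± 0.18, adjusted p = 0.00499) and Thbs3 (-0.77 ± 0.11, adjusted p = 0.00302) were lower too, and so was Serpinf1, an inhibitor of vessel growth (-0.88 ± 0.11, adjusted p = 0.00221). The fibroblast markers given above moved in the same direction as these matrix genes, and their part was not tested. Among them Scara5, a ferritin receptor of stromal cells, had 1.42, 0.88 and 5.89 CPM in the HLHS libraries and 2.53 (E13.5), 6.3 and 6.29 (E14.5), and 24.9 and 19.2 CPM (E17.5) in the controls. The HLHS library was the lowest of each litter (log2 change -1.93 ± 0.26, adjusted p = 0.00276). Dpt, the matrix protein dermatopontin, fell by 1.19 ± 0.22 (adjusted p = 0.00991), with differences of -0.89, -2.07 and -0.71, and Clec3b, tetranectin, by 1.94 ± 0.31 (adjusted p = 0.00531).

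Circulating and paracrine factors divided. Fndc5, the precursor of irisin, had 7.59, 9.85 and 17 CPM in the HLHS libraries and 14.2 (E13.5), 30.6 and 29.2 (E14.5), and 74.6 and 65 CPM (E17.5) in the controls. Controls of each later stage had more, the HLHS libraries less so. It fell by 1.61 ± 0.17 (adjusted p = 0.00107), and the difference was -0.90, -1.59 and -2.03 in the 3 litters. C1qtnf9, a C1q-related hormone of heart and fat, fell by 1.79 ± 0.21 (adjusted p = 0.00164), and Metrnl by 0.48 ± 0.09 (adjusted p = 0.0111). C1ql3, another C1q-related secreted protein, went the other way, with 13.3, 12.3 and 3.41 CPM in the HLHS libraries and 5.22 (E13.5), 2.85 and 2.61 (E14.5), and 0.417 and 1.5 CPM (E17.5) in the controls (log2 change 1.82 ± 0.25, adjusted p = 0.00304). Esm1, a proteoglycan released by sprouting endothelium, rose by 1.18 ± 0.21 (adjusted p = 0.00776), and its difference was 1.86, 1.05 and 0.65 from E13.5 to E17.5. Nppa, the atrial natriuretic peptide precursor that embryonic ventricles also make, had 261, 214 and 116 CPM in the HLHS libraries and 217 (E13.5), 120 and 116 (E14.5), and 86.7 and 77 CPM (E17.5) in the controls. It was above its littermates at each stage (log2 change 0.57 ± 0.09, adjusted p = 0.0054). Cxcl12, a chemokine needed for coronary growth, rose by 0.58 ± 0.06 (adjusted p = 0.000951), with differences of 0.46, 0.70 and 0.54. Fgf1 fell by 0.61 ± 0.10 (adjusted p = 0.00518). Of 27 semaphorins, netrins and slits, 4 were lower and 0 higher (14.8%, near the 12.8% of all genes), with 3 to 7 lower on leaving out 1 library. Among the 4 were the guidance factors Ntn1 (-0.46 ± 0.07, adjusted p = 0.00515) and Sema6b (-0.63 ± 0.11, adjusted p = 0.00796).

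Of 376 transcription factors tested, 32 were higher and 26 lower (15.4%, beside 12.8% of all genes), with a median of 0.03, and without HLHS library 2 the counts were 13 and 9. Of 47 bZIP factors 10 were higher and 0 lower, and 5 to 9 were higher with 1 library left out. Nfe2l3, of the NFE2 family, had 16, 25.3 and 6.55 CPM in the HLHS libraries and 7.75 (E13.5), 6.86 and 6.56 (E14.5), and 1.79 and 2.88 CPM (E17.5) in the controls. Each HLHS library stood above its littermates (log2 change 1.54 ± 0.17, adjusted p = 0.00119). Its relative Bach2, a bZIP repressor, rose by 0.62 ± 0.10 (adjusted p = 0.00509).

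Of 48 homeobox factors, 6 were higher and 5 lower (22.9%, beside 12.8% of all genes). With 1 library left out 2 to 7 were higher and 2 or 3 lower. Related members differed in direction. Prrx2 had 49.7, 55.3 and 14.1 CPM in the HLHS libraries and 22.8 (E13.5), 19 and 16.5 (E14.5), and 5.42 and 4.81 CPM (E17.5) in the controls. The HLHS library was above its littermates in every litter (log2 change 1.44 ± 0.10, adjusted p = 0.000211, differences 1.12, 1.64 and 1.45). The closely related Prrx1 had 8.36, 14.8 and 25.8 CPM in the HLHS libraries and 12.9 (E13.5), 20.3 and 20.1 (E14.5), and 35 and 36.3 CPM (E17.5) in the controls and fell by 0.50 ± 0.07 (adjusted p = 0.00392). Meox2, a factor that restrains vessel and muscle cell growth, had 3.56, 5.87 and 16.5 CPM in the HLHS libraries and 7.11 (E13.5), 14.3 and 15.4 (E14.5), and 27.7 and 28 CPM (E17.5) in the controls. It fell by 1.01 ± 0.12 (adjusted p = 0.0016). Its relative Meox1 was called higher (log2 change 0.57 ± 0.16, adjusted p = 0.0441), a call lost on leaving out any of HLHS libraries 1 and 2 and control libraries 1, 2, 3 and 5 (adjusted p = 0.0794 to 0.277), with a term for sex (0.0673) and with all 16 libraries in 1 fit (0.0788). Satb1, a chromatin organiser, rose by 0.48 ± 0.08 (adjusted p = 0.00535). Ahrr, a repressor of the aryl hydrocarbon receptor, fell by 0.95 ± 0.14 (adjusted p = 0.00445). Nfat5, the factor of the osmotic stress response, rose by 0.35 ± 0.05 (adjusted p = 0.00405), and Mycn, which drives growth of the embryonic heart wall, by 0.65 ± 0.07 (adjusted p = 0.00107). Hand1, a factor of the embryonic left ventricle, had 37.9, 19.5 and 10.1 CPM in the HLHS libraries and 38.5 (E13.5), 22.2 and 23.3 (E14.5), and 14 and 14.3 CPM (E17.5) in the controls and was not called (log2 change -0.25 ± 0.09, adjusted p = 0.104).

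Of 35 nuclear receptors tested 1 was higher and 4 lower (14.3%, with 3 to 6 lower on leaving out 1 library), and of 17 coregulators of metabolism 0 were higher and 2 lower (11.8%, with 1 or 2 lower). Both shares are near the 12.8% of all genes, so what follows concerns the single genes. Perm1, a muscle coregulator of mitochondrial genes that works with oestrogen-related receptors (ERR), had 15.4, 18 and 48.2 CPM in the HLHS libraries and 37.5 (E13.5), 42.6 and 47.5 (E14.5), and 136 and 122 CPM (E17.5) in the controls. In each litter the HLHS level was below the controls by a near equal factor (-1.28, -1.32 and -1.42), and the change of -1.35 ± 0.07 was among those with the smallest adjusted p (6.14e-05). Ppara, the receptor that turns on fatty acid oxidation, fell by 0.93 ± 0.11 (adjusted p = 0.00178), with differences of -0.99, -0.75 and -0.99. Esrra, an ERR itself, fell by 0.32 ± 0.05 (adjusted p = 0.00699), and Klf15, a regulator of heart muscle metabolism, by 0.60 ± 0.10 (adjusted p = 0.00574).

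The promoters of Perm1 and Mylk4, a kinase of myosin light chains that was also lower (-1.43 ± 0.25, adjusted p = 0.00704), are shown because both hold the letters of an ERR half-site. The windows are the 250 bases before the annotated start, from RefSeq on GRCm38.p6, printed in the direction of the gene; capitals mark AAGGTCA or its reverse complement TGACCTT. The Perm1 window is chr4:156215677-156215926 on the plus strand with 1 match, which begins 202 bases before the start, and the Mylk4 window is chr13:32783965-32784214 on the minus strand with 1 match at 145 bases.
Perm1: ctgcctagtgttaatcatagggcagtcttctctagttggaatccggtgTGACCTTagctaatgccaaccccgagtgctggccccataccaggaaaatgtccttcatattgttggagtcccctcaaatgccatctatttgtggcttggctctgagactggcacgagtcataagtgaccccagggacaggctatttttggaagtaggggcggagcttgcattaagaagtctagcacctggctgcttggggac
Mylk4: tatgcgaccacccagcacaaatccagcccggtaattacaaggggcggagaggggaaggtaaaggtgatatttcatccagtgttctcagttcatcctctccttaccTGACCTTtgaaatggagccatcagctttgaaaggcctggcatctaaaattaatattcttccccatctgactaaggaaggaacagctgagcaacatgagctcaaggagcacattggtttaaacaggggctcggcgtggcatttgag
Both strands were searched. These letters stood in 4.08% of all 32851 promoter windows and in 2.81% of those of tested genes with 1 window. Among the lower genes 30 of 615 windows held them (4.88%), and among the higher genes 7 of 587 (1.19%). A match describes the window and shows no binding.

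Of 508 transporters and channels tested, 66 were lower and 32 higher (19.3% called, beside 12.8% of all genes, median -0.03). Without HLHS library 2 these were 34 and 14. Among 46 mitochondrial carriers and uncoupling proteins 10 were lower and 3 higher (median -0.15), and 5 to 10 were lower with 1 library left out. Slc25a42, which carries coenzyme A into mitochondria, had 23.7, 15.2 and 27.5 CPM in the HLHS libraries and 36 (E13.5), 27.6 and 29.9 (E14.5), and 44.1 and 47 CPM (E17.5) in the controls. It fell by 0.76 ± 0.08 (adjusted p = 0.00105), with differences of -0.60, -0.92 and -0.72. Mpc2, a subunit of the mitochondrial pyruvate carrier, fell by 0.46 ± 0.07 (adjusted p = 0.00432). The citrate carrier Slc25a1 (0.67 ± 0.10, adjusted p = 0.00378) and the ATP-magnesium carrier Slc25a23 (0.33 ± 0.04, adjusted p = 0.00259) were higher.

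The transporters with the largest changes carry nucleosides and peptides across the plasma membrane. Slc28a2, a concentrative nucleoside transporter, had 0.257, 0.21 and 3.76 CPM in the HLHS libraries and 1.35 (E13.5), 2.37 and 2.88 (E14.5), and 12.5 and 13.9 CPM (E17.5) in the controls. The HLHS library was lowest in each litter (log2 change -2.21 ± 0.26, adjusted p = 0.0016). Slc15a2, a transporter of short peptides, had 0.472, 1.26 and 0.0775 CPM in the HLHS libraries and 2.21 (E13.5), 1.48 and 7.16 (E14.5), and 7.88 and 11.7 CPM (E17.5) in the controls. Its E14.5 controls differed from each other more than the lower of them differed from the HLHS library, and the change of -3.06 ± 0.78 (adjusted p = 0.0318) rested on few libraries: the call was lost on leaving out any of 6 of the 8, all but HLHS library 2 and control library 2 (adjusted p = 0.0526 to 0.0846), and limma-voom gave 0.0806. Slc2a3, a glucose transporter of high affinity, rose by 0.79 ± 0.11 (adjusted p = 0.00378), with 50.8, 52.7 and 20.3 CPM in the HLHS libraries and 32.6 (E13.5), 22.2 and 27.2 (E14.5), and 12.9 and 14.8 CPM (E17.5) in the controls. Atp2a2, the calcium pump of the sarcoplasmic reticulum, fell by 0.37 ± 0.07 (adjusted p = 0.0102), and the water channel Aqp1 by 0.42 ± 0.07 (adjusted p = 0.00772).

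Potassium channels carried 13 lower and 6 higher members among 62 tested (30.6%, beside 12.8% of all genes, median -0.20). When 1 library was left out 8 to 12 were lower. Kcnip2, the beta subunit that brings transient outward channels to the membrane, had 2.02, 4.23 and 43.7 CPM in the HLHS libraries and 7 (E13.5), 20.2 and 23.3 (E14.5), and 106 and 88.9 CPM (E17.5) in the controls. Its level was higher at each later stage in controls and lower in the HLHS library of each litter (log2 change -1.62 ± 0.20, adjusted p = 0.00183). Its partner Kcnd2, the pore subunit, had 3.77, 4.57 and 5.35 CPM in the HLHS libraries and 9.26 (E13.5), 11.6 and 12.3 (E14.5), and 11.4 and 12.6 CPM (E17.5) in the controls. The HLHS libraries were below all controls (log2 change -1.28 ± 0.11, adjusted p = 0.000327). Kcnn1, a small-conductance calcium-activated channel, fell by 1.55 ± 0.13 (adjusted p = 0.000354) and Kcna5 by 0.57 ± 0.08 (adjusted p = 0.00419). Kcnmb1, a subunit typical of smooth muscle, rose by 1.10 ± 0.17 (adjusted p = 0.00484).

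Other channels called lower were Cacna1d, the pore of a calcium channel of pacemaker cells (-0.89 ± 0.10, adjusted p = 0.00154), and Cacng6 (-1.46 ± 0.17, adjusted p = 0.00142). Gja3, a connexin, had 8.28, 8.47 and 15.5 CPM in the HLHS libraries and 14.6 (E13.5), 16.6 and 14.7 (E14.5), and 28.6 and 29.5 CPM (E17.5) in the controls. Its differences of -0.81, -0.88 and -0.90 were alike in the 3 litters (adjusted p = 0.000752). Abcc8, a subunit of ATP-sensitive potassium channels, fell by 0.56 ± 0.10 (adjusted p = 0.00725).

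**Figure D3:**
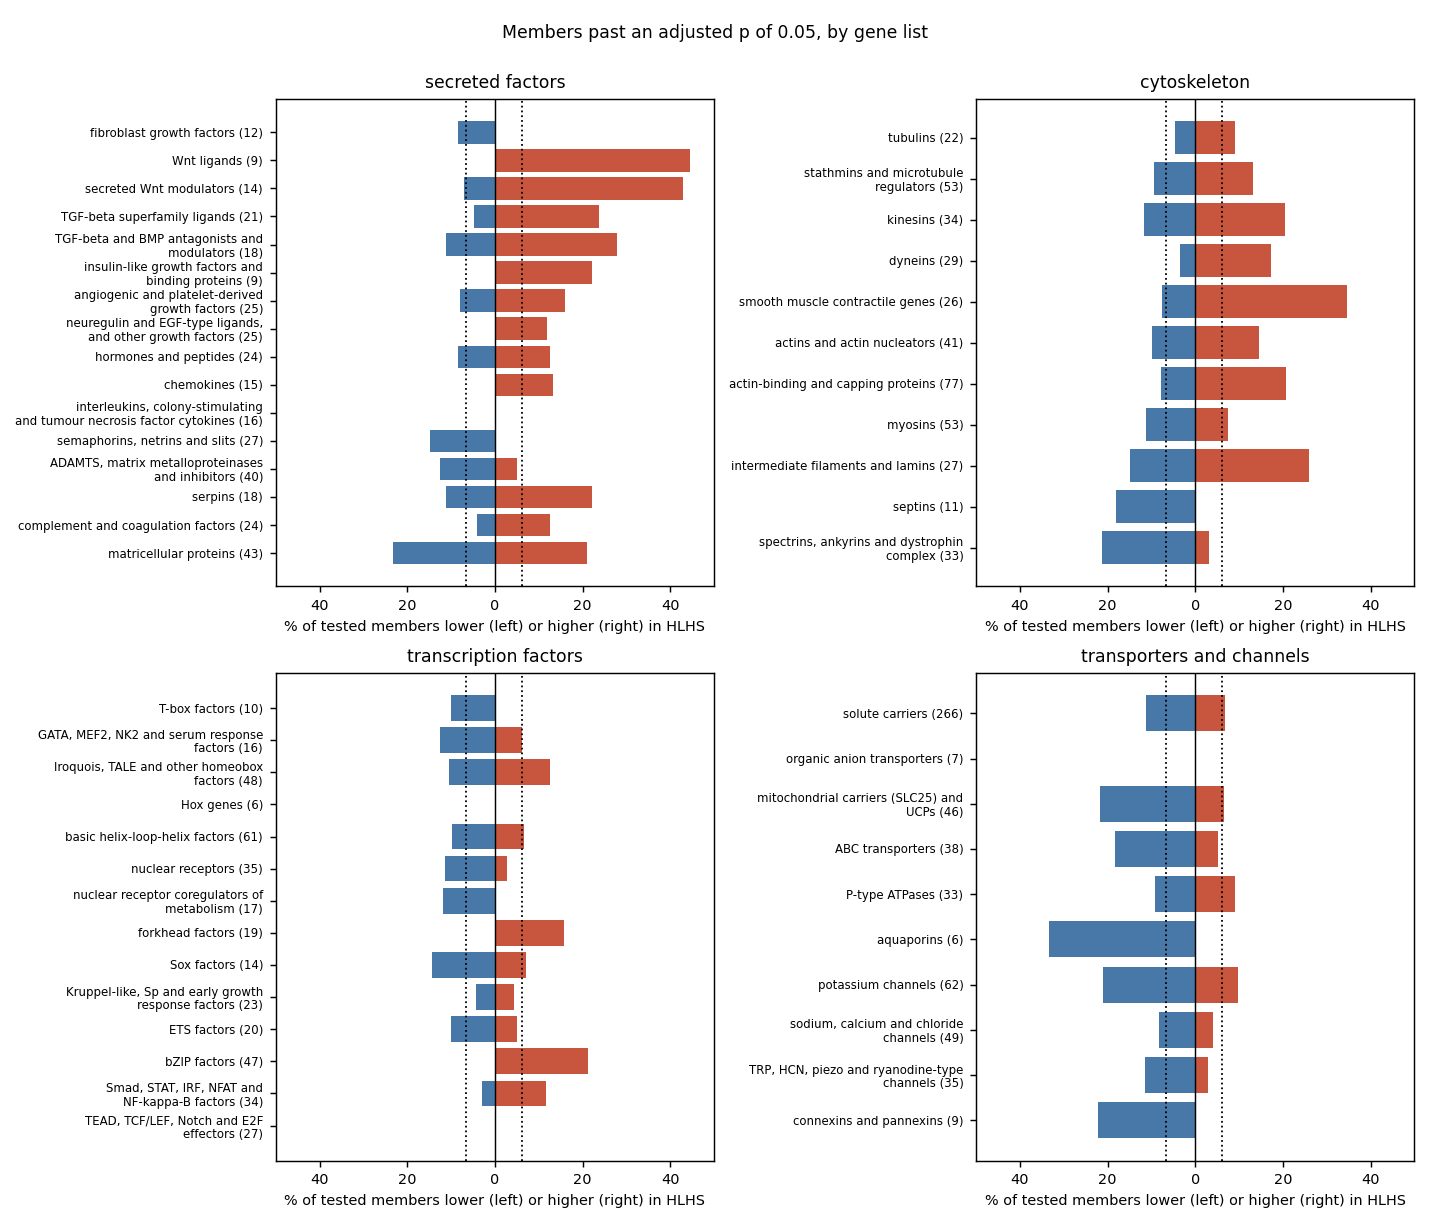
Share of tested members called lower (bars to the left) or higher (bars to the right) in the HLHS left ventricle at an adjusted p under 0.05, in percent (x axis), for each list of secreted factors, transcription factors, transporters and channels, and cytoskeleton (y axis, with the number tested). Dotted lines mark the shares of all tested genes, 6.61% lower and 6.17% higher; Among these lists, which leave out the cell type markers, Wnt ligands (9 tested) and modulators (14 tested) extend farthest to the right, and aquaporins (6 tested) farthest to the left.

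The cytoskeleton had 61 higher and 41 lower members among 399 tested (25.6% called, beside 12.8% of all genes, median 0.05), and 26 and 22 without HLHS library 2. The largest rise was in a microtubule regulator. Stmn4, a stathmin of neurons that binds free tubulin, had 36.6, 42.4 and 3.99 CPM in the HLHS libraries and 3.66 (E13.5), 2.69 and 1.34 (E14.5), and 0.793 and 1.54 CPM (E17.5) in the controls. The E13.5 and E14.5 HLHS libraries were about 10-fold or more above their littermates, and the E17.5 HLHS library was close to the E13.5 control (log2 change 3.42 ± 0.40, adjusted p = 0.00156). The effect at E17.5 minus that in the earlier litters was -2.11 ± 0.50, which did not pass (adjusted p = 0.0799). In the opposite direction, Tppp, a protein that bundles microtubules, had 10.1, 7.25 and 14.1 CPM in the HLHS libraries and 22 (E13.5), 19.5 and 20.5 (E14.5), and 29.8 and 27 CPM (E17.5) in the controls. All HLHS libraries were below all controls (log2 change -1.19 ± 0.10, adjusted p = 0.000426). Its relative Tppp3 fell by 0.98 ± 0.15 (adjusted p = 0.00401), with differences of -1.24, -0.92 and -0.85. Of 34 kinesins, the motors that walk along microtubules, 7 were higher and 4 lower, but with 1 library left out the higher ones were 0 to 7 and the lower ones 0 to 3.

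Contractile genes of smooth muscle were higher for 9 and lower for 2 of 26 tested (42.3%, beside 12.8% of all genes). With 1 library left out 7 to 11 were higher. Tagln, an actin-binding protein of smooth muscle and immature heart muscle, had 315, 508 and 58.3 CPM in the HLHS libraries and 108 (E13.5), 53.6 and 49.4 (E14.5), and 45.2 and 35.5 CPM (E17.5) in the controls. The E14.5 HLHS library was the highest, and at E17.5 the difference was small (log2 change 1.98 ± 0.40, adjusted p = 0.014). Cnn1, calponin, which restrains actomyosin, had 485, 562 and 126 CPM in the HLHS libraries and 220 (E13.5), 153 and 139 (E14.5), and 35.7 and 47.7 CPM (E17.5) in the controls. Its HLHS library was above the littermates in every litter (log2 change 1.60 ± 0.13, adjusted p = 0.000327). Actg2 (1.46 ± 0.30, adjusted p = 0.0149) and Pdlim7 (0.69 ± 0.08, adjusted p = 0.00169) rose too. The list did not move as a block: Myh11, the myosin of mature smooth muscle, had 0.986, 2.18 and 10.5 CPM in the HLHS libraries and 1.13 (E13.5), 2.73 and 4.05 (E14.5), and 29.3 and 24.7 CPM (E17.5) in the controls and fell by 0.97 ± 0.22 (adjusted p = 0.0194). That call was lost without HLHS library 3 (adjusted p = 0.179) or control library 4 (0.054). Smtn fell by 0.28 ± 0.05 (adjusted p = 0.00659), and Acta2 was not called (log2 change 0.28 ± 0.11, adjusted p = 0.108). Of the 12 smooth muscle and pericyte markers, 3 were higher and 4 lower (58.3%). They summed to 2777 to 4279 CPM in HLHS and 2614 to 3010 CPM in control libraries. That sum includes Tagln and Cnn1 themselves. The median difference over the 12 markers was -0.16, 0.25 and -0.01 in the 3 litters. The part of these cells in the values was not tested.

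Among 77 actin-binding proteins 16 were higher and 6 lower (28.6%, beside 12.8% of all genes), and 5 to 15 were higher with 1 library left out. Xirp2, which binds actin at the ends of heart muscle cells, had 9.22, 16 and 28.3 CPM in the HLHS libraries and 2.21 (E13.5), 3.37 and 3.65 (E14.5), and 14.6 and 15 CPM (E17.5) in the controls. Its HLHS library was highest in each litter (log2 change 1.64 ± 0.21, adjusted p = 0.0021). Ablim3, an actin-binding LIM protein, had 4.12, 4.57 and 24.9 CPM in the HLHS libraries and 16.9 (E13.5), 24.1 and 25.7 (E14.5), and 59.9 and 57 CPM (E17.5) in the controls. All 3 HLHS libraries were far below their littermates (log2 change -1.78 ± 0.19, adjusted p = 0.00116). Actn1, an alpha-actinin of non-muscle cells, rose by 0.58 ± 0.09 (adjusted p = 0.00531). Diaph3, a formin that lengthens actin filaments, rose by 0.37 ± 0.07 (adjusted p = 0.00823).

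Of 27 intermediate filament and plakin genes 7 were higher and 4 lower (40.7%, beside 12.8% of all genes). On leaving out 1 library 6 to 12 were higher. The simple-epithelium keratin Krt18 had 46.2, 62.5 and 8.44 CPM in the HLHS libraries and 12.5 (E13.5), 9.43 and 9.94 (E14.5), and 5.51 and 4.85 CPM (E17.5) in the controls. In the early litters HLHS was several-fold above the littermates and at E17.5 less than 2-fold (log2 change 1.89 ± 0.28, adjusted p = 0.00392). Its relative Krt19 rose by 1.45 ± 0.28 (adjusted p = 0.011), with differences of 1.17, 2.40 and 0.48, and Krt80 by 1.07 ± 0.10 (adjusted p = 0.000569), with 0.92, 1.36 and 0.88. Krt17 was at a low level, with 5.83, 10.3 and 0.387 CPM in the HLHS libraries and 1.24 (E13.5), 0.562 and 0.736 (E14.5), and 0.25 and 0.158 CPM (E17.5) in the controls (log2 change 2.94 ± 0.41, adjusted p = 0.003). Krt18 and Krt19 are also epicardial markers; they were the only members called of the 12 epicardial markers, which summed to 301 to 450 CPM in HLHS and 263 to 326 CPM in control libraries. The epicardial sum includes Krt18 and Krt19 themselves. The median difference over the 12 epicardial markers was 0.37, -0.12 and 0.04 in the E13.5, E14.5 and E17.5 litters. The part of epicardium in the keratin values was not tested. Synm, which ties desmin filaments to the contractile apparatus, rose by 1.29 ± 0.16 (adjusted p = 0.00184).

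Of 53 myosins and their kinases 4 were higher and 6 lower (18.9%, beside 12.8% of all genes). Leaving out 1 library gave 2 to 6 higher and 5 to 8 lower. Myh6, the fast heavy chain of atria and maturing heart muscle, had 2299, 1219 and 1774 CPM in the HLHS libraries and 3428 (E13.5), 1997 and 1674 (E14.5), and 6860 and 5644 CPM (E17.5) in the controls. The gap was widest in the E17.5 litter (log2 change -0.99 ± 0.22, adjusted p = 0.0182). The slow chain Myh7 had 11634, 9016 and 11217 CPM in the HLHS libraries and 11964 (E13.5), 9228 and 7947 (E14.5), and 10686 and 11070 CPM (E17.5) in the controls and was not called (log2 change 0.03 ± 0.06, adjusted p = 0.783). Myo5b and Myo5c, motors that carry vesicles along actin, fell by 1.36 ± 0.14 (adjusted p = 0.00105) and 1.11 ± 0.11 (adjusted p = 0.000786). Myh1, a heavy chain of fast skeletal muscle, rose by 1.92 ± 0.28 (adjusted p = 0.00394) from a low level, with 2.49, 3.14 and 2.09 CPM in the HLHS libraries and 1.08 (E13.5), 1.12 and 0.602 (E14.5), and 0.334 and 0.355 CPM (E17.5) in the controls. Of 33 spectrins, ankyrins and dystrophin-complex genes 7 were lower and 1 higher (24.2%), with 4 to 6 lower and 0 to 3 higher on leaving out 1 library. Ank2, which anchors ion pumps and channels in heart muscle, fell by 0.39 ± 0.06 (adjusted p = 0.0042).

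Outside these families, the largest changes among genes at an average log2 CPM of 2 or more included a pair of enzymes that moved in opposite directions. Hmox1, haem oxygenase, had 70.5, 107 and 46.9 CPM in the HLHS libraries and 20.5 (E13.5), 19.6 and 22.6 (E14.5), and 14.1 and 13.2 CPM (E17.5) in the controls. The HLHS library was at least 3-fold above the littermates at every stage (log2 change 2.00 ± 0.11, adjusted p = 6.14e-05). The erythroid markers given above, whose cells are rich in haem, were also higher, and their part was not tested. Ckmt2, a creatine kinase of muscle mitochondria, had 8.96, 5.91 and 33.7 CPM in the HLHS libraries and 24.9 (E13.5), 28.4 and 31 (E14.5), and 201 and 175 CPM (E17.5) in the controls. Its level was higher at E17.5 than earlier in both groups and the HLHS library was the lowest of each litter (log2 change -2.18 ± 0.16, adjusted p = 0.000211, differences -1.46, -2.31 and -2.48). Dhrs7c, a dehydrogenase of the sarcoplasmic reticulum, had 2.4, 4.57 and 36.8 CPM in the HLHS libraries and 12.2 (E13.5), 27.7 and 28.4 (E14.5), and 116 and 107 CPM (E17.5) in the controls and fell by 2.04 ± 0.17 (adjusted p = 0.000354). Nol3, an inhibitor of cell death in muscle, fell by 1.74 ± 0.19 (adjusted p = 0.00122). Wscd2, a membrane protein with a sulfotransferase fold, rose by 1.73 ± 0.18 (adjusted p = 0.000977). Tnni2, the troponin I of fast skeletal muscle, rose by 1.66 ± 0.16 (adjusted p = 0.000713), with differences of 1.25, 2.16 and 1.33. Of 6 skeletal muscle markers tested 1 was higher and 1 lower (33.3%, beside 12.8% of all genes). Their sum was 183 to 767 CPM in HLHS and 349 to 1022 CPM in control libraries. Nearly all of it was Ckm, the member called lower, with 176, 342 and 761 CPM in the HLHS libraries. Ckm had 342 (E13.5), 514.5 and 535 (E14.5), and 1016 and 948 CPM (E17.5) in the controls. No other member was above 6.58 CPM, so the sum describes Ckm and not the rest of the list.

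Whether the HLHS effect at E17.5 had another size than the mean of the earlier litters was tested as 1 contrast, in which the spread came only from the control pairs at E14.5 and E17.5. It passed for 266 of 15979 genes (1.66%): in 88 the effect was more positive at E17.5 and in 178 more negative, and 50 of the 266 were also called in the overall comparison. Without control library 2 or 3 the 266 became 877 or 578. A test for any difference among the 3 litters passed for 209 genes (1.31%). The E17.5 contrast passed for 20 of 336 secreted factors (5.95%), 12 of 376 transcription factors (3.19%), 17 of 508 transporters and channels (3.35%) and 16 of 399 cytoskeletal genes (4.01%). In the last 2 classes 14 of 17 and 14 of 16 were more negative at E17.5.

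Hk2, P4ha1 and Slc16a3 were among the genes more negative at E17.5. Hk2, a hexokinase of muscle, had 245, 192 and 131 CPM in the HLHS libraries and 163 (E13.5), 117 and 109 (E14.5), and 181 and 195 CPM (E17.5) in the controls. In the early litters HLHS was above the littermates and at E17.5 below them (contrast -1.20 ± 0.09, adjusted p = 0.00748). P4ha1, a collagen prolyl hydroxylase that low oxygen induces, had 92.1, 106 and 75.9 CPM in the HLHS libraries and 55.7 (E13.5), 52.8 and 55.1 (E14.5), and 85.6 and 85.2 CPM (E17.5) in the controls. It was higher in HLHS at E13.5 and E14.5 and lower at E17.5 (contrast -1.02 ± 0.09, adjusted p = 0.00852). Slc16a3, the exporter of lactate, had 279, 338 and 111 CPM in the HLHS libraries and 177 (E13.5), 132 and 135 (E14.5), and 97.7 and 113 CPM (E17.5) in the controls. At E17.5 the HLHS library lay between its littermates (contrast -0.92 ± 0.11, adjusted p = 0.0161). In the overall comparison Slc16a3 was called at 0.73 ± 0.18 (adjusted p = 0.0302), a call lost without any of HLHS libraries 1 and 2 and control libraries 1 to 4 (adjusted p = 0.0574 to 0.142) and in DESeq2 (0.0567).

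The promoter windows of these 3 genes are shown because each holds ACGTG, the core of the hypoxia response element. They are the 250 bases before the start from RefSeq on GRCm38.p6, in the direction of the gene; capitals mark ACGTG or its reverse complement CACGT, searched on both strands. P4ha1 is at chr10:59323046-59323295 on the plus strand with 1 match 16 bases before the start, Hk2 at chr6:82774455-82774704 on the minus strand with 2 matches at 226 and 52 bases, and Slc16a3 at chr11:120948817-120949066 on the plus strand with 2 matches at 27 and 14 bases.
P4ha1: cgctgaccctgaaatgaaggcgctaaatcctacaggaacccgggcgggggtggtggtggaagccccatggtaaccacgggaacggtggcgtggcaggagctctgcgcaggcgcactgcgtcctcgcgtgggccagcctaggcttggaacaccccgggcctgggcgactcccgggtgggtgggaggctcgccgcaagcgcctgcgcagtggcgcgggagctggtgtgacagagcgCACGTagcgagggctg
Hk2: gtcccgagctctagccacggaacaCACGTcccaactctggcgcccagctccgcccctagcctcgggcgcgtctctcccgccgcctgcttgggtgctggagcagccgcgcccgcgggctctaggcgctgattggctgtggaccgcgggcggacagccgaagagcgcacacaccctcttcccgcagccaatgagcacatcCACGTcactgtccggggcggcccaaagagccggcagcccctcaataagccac
Slc16a3: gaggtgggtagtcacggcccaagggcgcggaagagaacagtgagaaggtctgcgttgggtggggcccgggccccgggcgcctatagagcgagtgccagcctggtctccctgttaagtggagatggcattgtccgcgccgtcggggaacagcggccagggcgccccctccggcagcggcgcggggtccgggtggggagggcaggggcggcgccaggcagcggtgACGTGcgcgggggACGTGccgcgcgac
The letters overlap those of the E-box CACGTG. They stood in 16.6% of all windows, in 21.3% of those of tested genes and in 22.5% of the 111 windows of genes more negative at E17.5. The share in the group was near that background, and a match shows no binding.

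Several cytoskeletal genes shared this course. The contrast was -1.89 ± 0.16 for Tagln (adjusted p = 0.00824), -1.58 ± 0.16 for Krt18 (adjusted p = 0.0161), -1.32 ± 0.17 for Krt19 (adjusted p = 0.0189) and -1.18 ± 0.17 for Xirp2 (adjusted p = 0.0268), so that their excess in HLHS was smaller at E17.5. For Xirp2 the test passed in edgeR and not in DESeq2 (adjusted p = 0.0667). Myh6, lower in HLHS in every litter, differed most at E17.5 (contrast -1.23 ± 0.18, adjusted p = 0.0268). Kcnk3, a background potassium channel, changed sign, with differences of 0.81, 0.39 and -0.37 (contrast -0.97 ± 0.08, adjusted p = 0.00824), and so did Slc16a12, a creatine transporter of the monocarboxylate family, with 1.14, 0.02 and -1.45 (contrast -2.05 ± 0.19, adjusted p = 0.0133).

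In the other direction, Igfbp3, which binds insulin-like growth factors, had 51.8, 78.3 and 97.5 CPM in the HLHS libraries and 115 (E13.5), 97.4 and 94.6 (E14.5), and 48.6 and 52.7 CPM (E17.5) in the controls. It was below the littermates at E13.5 and E14.5 and above them at E17.5 (contrast 1.66 ± 0.09, adjusted p = 0.00195). Gria1, a glutamate receptor subunit, had 6.17, 13.6 and 21.3 CPM in the HLHS libraries and 12.5 (E13.5), 12 and 12.9 (E14.5), and 5.51 and 6.22 CPM (E17.5) in the controls. Its difference ran from -1.01 at E13.5 to 1.85 at E17.5 (contrast 2.31 ± 0.17, adjusted p = 0.00748). Aplnr, the apelin receptor of endothelium, differed by -1.15, -0.67 and 0.15 and Gipr, an incretin receptor, by -0.87, -1.42 and 0.08, so both were lower in the early litters and near their littermates at E17.5 (contrasts 1.06 ± 0.10 and 1.22 ± 0.12, adjusted p = 0.0133 and 0.0137). Ablim3 and Dhrs7c, low in HLHS at every stage, were less so at E17.5 (contrasts 1.01 ± 0.14 and 0.89 ± 0.14, adjusted p = 0.0231 and 0.0317; for Dhrs7c 0.068 by limma-voom). With 1 HLHS embryo per litter, a difference between stages and one between embryos cannot be told apart.

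**Figure D4:**
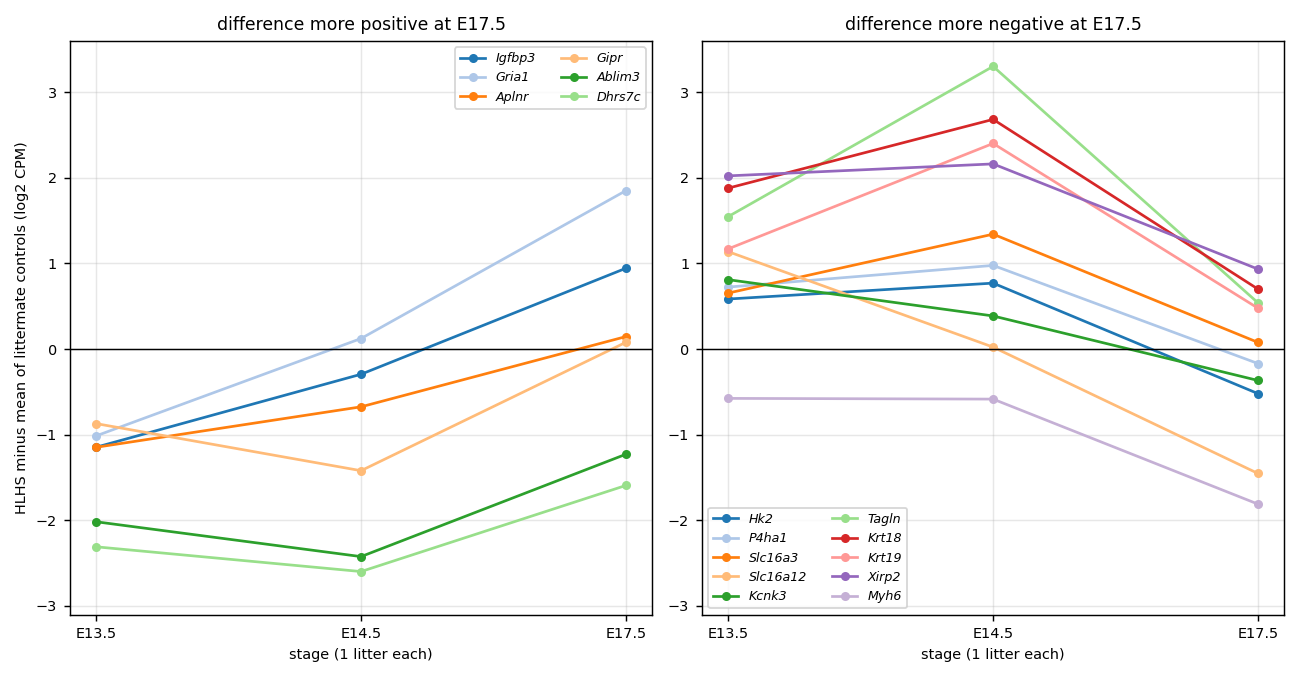
Difference between the HLHS left ventricle and the mean of its littermate controls in log2 CPM (y axis) at each stage (x axis) for 16 genes past the contrast of E17.5 with the earlier litters. Lines join the values of a gene from 3 separate litters; Igfbp3 and Gria1 end above 0 and Hk2, Kcnk3 and Slc16a12 below it.

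To ask whether a change was particular to the left ventricle, the HLHS effect on the left was compared with that on the right in the 16 libraries with the embryo as a block. The test passed for 3 of 16508 genes (0.0182%) in edgeR, while 1411 had an unadjusted p under 0.05; DESeq2 called 132 and limma-voom 5. In the right ventricle alone 1067 of 16142 genes (6.61%) were called. Of the left-sided changes described above, the edgeR test called that of Tppp as different between the sides. Without control embryo 3, 4 or 5 none of the 3 calls remained.

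Tppp, given above for the left, had in the right ventricle 21.1, 20.7 and 34.5 CPM in the HLHS libraries and 26.1 (E13.5), 23.9 and 26.8 (E14.5), and 34.3 and 35.5 CPM (E17.5) in the controls. On the right the HLHS libraries were close to their littermates (left minus right -0.98 ± 0.11, adjusted p = 0.0235; the right-sided change was -0.19 ± 0.09, adjusted p = 0.212). Tmem26, a membrane protein, had on the left 2.83, 2.31 and 1.94 CPM in the HLHS libraries and 6.25 (E13.5), 5.9 and 5.49 (E14.5), and 5.42 and 5.12 CPM (E17.5) in the controls. On the right it had 13.1, 14.2 and 7.93 CPM in the HLHS libraries and 3.93 (E13.5), 10.3 and 5.73 (E14.5), and 4.94 and 5.74 CPM (E17.5) in the controls. It was lower in HLHS on the left and higher on the right in every litter (left minus right -2.22 ± 0.28, adjusted p = 0.0355). P4ha3, a collagen prolyl hydroxylase, had on the left 22.9, 22.6 and 17 CPM in the HLHS libraries and 29.7 (E13.5), 25.2 and 25.7 (E14.5), and 26.7 and 25.7 CPM (E17.5) in the controls and on the right 44.9, 40.6 and 34.4 CPM in the HLHS libraries and 31.4 (E13.5), 32.4 and 27.3 (E14.5), and 23.9 and 27.5 CPM (E17.5) in the controls. It too was below its littermates on the left and above them on the right (left minus right -0.85 ± 0.11, adjusted p = 0.0377). Its left-sided change of -0.39 ± 0.09 (adjusted p = 0.0238) was lost without HLHS library 1 or 3 or control library 1 or 4 (adjusted p = 0.0557 to 0.0749). Without HLHS embryo 2 the difference between the sides was at an adjusted p of 0.0464 for Tppp, 0.12 for Tmem26 and 0.0689 for P4ha3. Just above the threshold lay Ckmt2 (left minus right -1.12 ± 0.16, adjusted p = 0.0588), Mylk4 (-2.01 ± 0.30, adjusted p = 0.0588), Prnp, the prion protein (0.49 ± 0.08, adjusted p = 0.0588), and Prrx2 (0.94 ± 0.15, adjusted p = 0.059). At the same adjusted p of 0.0588 stood Pak6, a kinase (0.60 ± 0.09), and S100a8, a protein of neutrophils (2.63 ± 0.41), and at 0.059 Adgrg1, an adhesion receptor (0.89 ± 0.14). Thbs3, lower on the left, also had an adjusted p of 0.0588 (left minus right -1.08 ± 0.17). On the right Thbs3 was higher in HLHS (0.36 ± 0.09, adjusted p = 0.046).

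**Figure D5:**
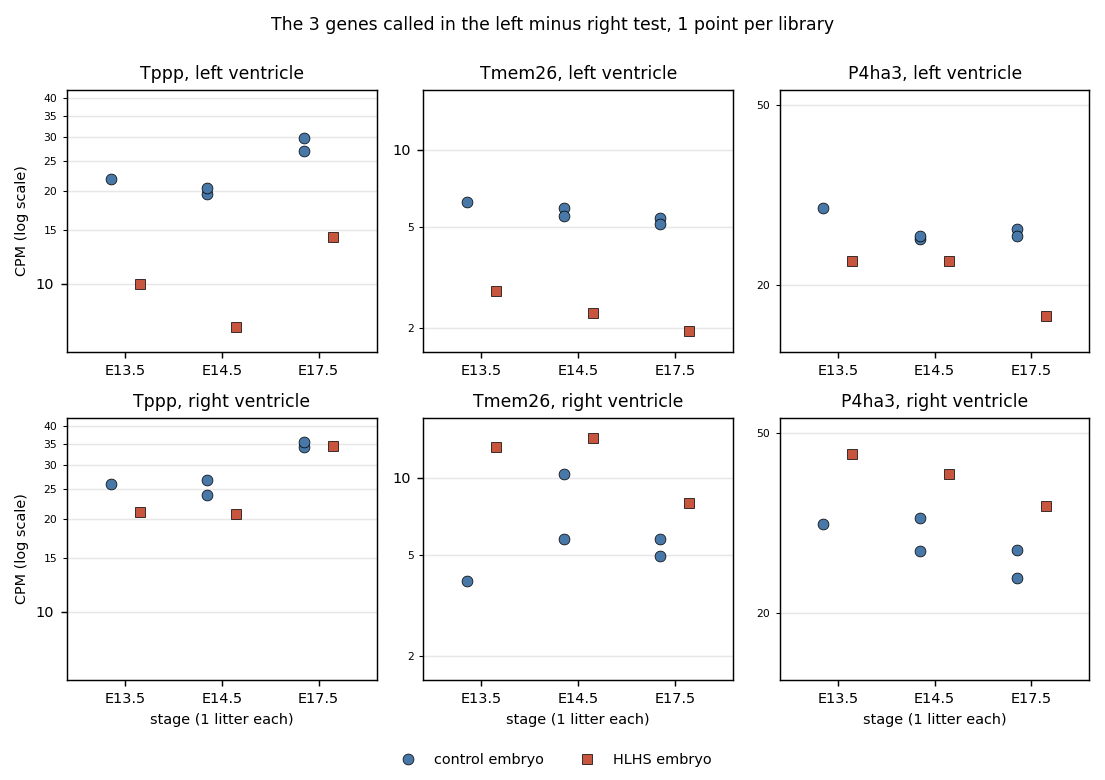
Level in CPM (y axis, log scale, the same range for both sides of a gene) of Tppp, Tmem26 and P4ha3 by stage (x axis) in the left (top) and right (bottom) ventricle, with circles for control and squares for HLHS embryos. On the left all HLHS libraries lie below their littermates, and on the right those of Tmem26 and P4ha3 lie above them.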

How the data were processed

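Raw read counts per gene were deposited by the authors for 16 ventricle libraries. Per the submitters' processing notes these were made on mm9, with the tools HTSeq 0.5.4p5, edgeR 3.4.2, TopHat2 2.0.9 and Picard. The sources used here do not give annotation or strand of counting, and reads of overlapping genes, antisense partners and near-identical copies such as globins cannot be told apart. The table holds 37991 genes, 32919 of them (86.6%) with a symbol. No 2 libraries of a group agreed within sampling noise (lowest chi-square per degree of freedom 7.51 over 13 pairs).

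The 8 left ventricle libraries were fitted with edgeR 4.0.16 (R 4.3.3): trimmed mean scaling, a filter on low counts (10 per library, 15 in all), litter and phenotype as terms, a quasi-likelihood test and Benjamini-Hochberg adjustment over all genes at 0.05. Litter is the pairing, from the labels' stages. Standard errors are the log2 change over the root of F. CPM use the scaled library sizes, and differences per litter are log2 CPM with a prior count of 2. The contrast of E17.5 used litter-by-phenotype cells. The difference between sides used 16 libraries with embryo as a block. On simulated counts with 200 genes changed 2-fold, the 3 fits recovered 74.5% (15979 genes), 58.5% (15979 genes) and 73% (16508 genes) of them, and 10.8%, 5.65% and 11.5% of the calls were unchanged genes. These shares exceed the threshold of 0.05, the first and last clearly, so the adjusted p of those fits may be too low.

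Members, gene lists and tests were chosen with earlier results of these data known. Genes named were the 10 largest changes in each direction with average log2 CPM of at least 2, up to 5 per direction in each list, the 5 with the smallest p per direction in each other contrast, and Sap130, Ckmt2, Hmox1, Stmn4, Slc15a2, Rspo3, Hand1, Nppa, Myh6 and Myh7. Some others were named after their values were seen. Alternatives were DESeq2 1.42.0, its size factors, limma-voom (limma 3.58.1), other filters, no litter or embryo term, a term for sex, all 16 libraries in 1 fit, globin genes left out and each library left out. Promoter windows are RefSeq sequence on GRCm38.p6, matched by symbol; no other coordinates are used. Some genes are not reported here.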

Additional observations from a re-analysis of the deposited data

Results flagged for a closer look

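Bmp10 and Cacng6 each had 1 control library far from the other 4: Bmp10 stood at 49.1 CPM in the E13.5 control and Cacng6 at 8.01 CPM in control library 4 at E17.5. Of 130 genes looked at, 2 had such a library. Chance alone flags about 1 in 20 groups, and the controls come from 3 stages, so a stage can also set a library apart.

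Of 130 genes looked at, 17 had an HLHS effect at E17.5 in the left ventricle that differed from the mean of the earlier litters. This was by an edgeR test of the difference itself, which passed for 266 of all 15979 tested genes. Some of the 17 were chosen for their small p in that test. The contrasts, in log2, were 1.66 for Igfbp3, 2.31 for Gria1, 1.06 for Aplnr, 1.22 for Gipr, 1.01 for Ablim3 and 0.89 for Dhrs7c, each more positive at E17.5. They were more negative for Tagln (-1.89), Krt18 (-1.58), Krt19 (-1.32), Xirp2 (-1.18), Myh6 (-1.23), Hk2 (-1.20), P4ha1 (-1.02), Slc16a3 (-0.92), Kcnk3 (-0.97), Slc16a12 (-2.05) and Bmp10 (-0.73). The Bmp10 call was lost in DESeq2 (adjusted p = 0.114) and limma-voom (0.0686) and without control library 4 (0.0556) or 5 (0.0662).

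For 3 genes the HLHS effect differed between the left and the right ventricle by a test of the difference. Left minus right, in log2, was -0.98 for Tppp, -2.22 for Tmem26 and -0.85 for P4ha3.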

How the results depend on the processing

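The comparison of HLHS with control rested on the litter: without a replicate block, that is without the litter term, 1 gene was called in place of 2043, and 1 of the 368 called list members. The fit for the difference between the sides called 9 genes without the replicate block for the embryo, in place of 3. Other scalings, tests and filters, a term for sex, all 16 libraries in 1 fit and the removal of globin genes gave 2020 to 2718 genes. Leaving out 1 library gave 845 to 2309 genes and 173 to 412 list members; the lowest counts were those without HLHS library 2. For E17.5 against the earlier litters, leaving out 1 control gave 253 to 877 genes and no count filter 1368, against 266. For left minus right, DESeq2 called 132 genes, limma-voom 5 and the fit without a count filter 217, and leaving out 1 embryo gave 0 to 135; the cause was not tested. Of 119 called genes examined singly, 105 were called in every alternative with the litter term.

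Changes of sign were limited to genes that were not called overall and to Bmp10, for which E17.5 minus E14.5 alone, chosen after seeing the data, gave 0.28 in place of -0.73. The change of Myh7 ran from -0.0048 (without control library 3) to 0.060 with 1 library left out, and that of Hand1 was 0.0037 without the litter term. Igfbp3 was at 0.066 with a term for sex and from -0.65 to 0.36 with 1 library left out. The same range was -0.32 to 1.04 for Gria1, -0.033 to 0.69 for Hk2 and -0.61 to 0.50 for Slc16a12, which was at 0.20 without the litter term. With 18179762 or more counts per library, genes near 10 counts were the limit of what could be tested.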

Other observations

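Gene groups that no list above covers also moved in the HLHS left ventricle. They were picked out after their values had been seen, so their counts are descriptions without a test. Over all tested genes 6.17% were higher and 6.61% lower. Of 35 germ cell genes measured, 12 were higher and 5 lower (median log2 change 0.34 against 0.01 over all tested genes). Meioc, a factor of meiotic prophase, had 8.4, 11.4 and 1.63 CPM in the HLHS libraries and 1.56 (E13.5), 1.97 and 2.21 (E14.5), and 0.751 and 0.709 CPM (E17.5) in the controls (log2 change 2.10 ± 0.22, adjusted p = 0.00111). Rbm44, an RNA-binding protein of germ cells, rose by 1.24 ± 0.20 (adjusted p = 0.00531 in edgeR), with differences of 2.03, 0.82 and 1.12 in the E13.5, E14.5 and E17.5 litters. Xlr rose by 1.49 ± 0.18 (adjusted p = 0.00167); it belongs to a family of near-identical copies, so its reads may come from more than 1 of them. Other genes of the same list were lower. Mov10l1, a helicase of the piRNA pathway, had 30.6, 43.8 and 58 CPM in the HLHS libraries and 48.1 (E13.5), 76.7 and 76.8 (E14.5), and 104 and 103 CPM (E17.5) in the controls. The HLHS library was the lowest of every litter (log2 change -0.78 ± 0.06, adjusted p = 0.000211). Ybx2, which stores RNA in germ cells, fell by 0.84 ± 0.07 (adjusted p = 0.000327), and Gtsf1 by 1.28 ± 0.21 (adjusted p = 0.00561).

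Of 16 measured Asb genes, which encode substrate adaptors of ubiquitin ligases and are prominent in muscle, 6 were lower and 0 higher (median -0.28, beside 6.61% of all tested genes called lower). Asb10 had 3.56, 3.77 and 9.95 CPM in the HLHS libraries and 8.02 (E13.5), 10.9 and 10.6 (E14.5), and 22.4 and 25.1 CPM (E17.5) in the controls. No HLHS library reached its littermates (log2 change -1.32 ± 0.11, adjusted p = 0.000327). Of 6 MHC class II genes, 2 were lower, beside the same 6.61% of all tested genes. H2-Eb1 had 0.429, 0.21 and 0.271 CPM in the HLHS libraries and 1.99 (E13.5), 1.69 and 4.52 (E14.5), and 1.08 and 1.14 CPM (E17.5) in the controls (log2 change -2.72 ± 0.48, adjusted p = 0.00776), and without HLHS library 2 its adjusted p was 0.0601. Cldn5, the claudin of endothelial junctions and 1 of the 3 endothelial markers called lower, had 13.4, 16.2 and 27.5 CPM in the HLHS libraries and 29.3 (E13.5), 37 and 40.9 (E14.5), and 52 and 49.2 CPM (E17.5) in the controls and fell by 1.08 ± 0.09 (adjusted p = 0.000327).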
